A study of Mus musculus with 12 samples.

Results

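The genes described here break down fatty acids or are controlled by the lipid-sensing PPAR receptors: the carnitine shuttle, the mitochondrial and peroxisomal beta-oxidation enzymes, the electron transfer flavoproteins, a set of PPAR target genes, and Ppara, Ppard and their coactivator Ppargc1a. They were picked by symbol and not by any measured value, though with earlier results of these data known. All 34 were found among the 21936 genes of the deposited table. RNA was sequenced from eyelids of male C57BL/6 mice aged 6 to 8 weeks at the start, kept in a cycle of 12 h of light and 12 h of darkness. One set of mice ate a standard diet with 10 kcal% fat (CTL, controls) and the other a high-fat diet with 60 kcal% fat (HF), and tissue was taken at 9h, 15h or 21h of the day. The 6 groups held 2 libraries each, 12 in all, and each library is called here by the number in its label. The labels give 3 months of diet and the series text 4 months. Nothing in the sources used here says whether a library was 1 mouse or a pool of mice, and p-values therefore reflect only how far libraries of a group lay apart.

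Fatty acids are activated to acyl-CoA, passed into mitochondria by the carnitine shuttle and shortened there in a repeated cycle of dehydrogenation, hydration, dehydrogenation and thiolysis. Peroxisomes run a parallel cycle for very long and branched chains. The flavoproteins ETFA and ETFB and the dehydrogenase ETFDH pass electrons from the acyl-CoA dehydrogenases to the respiratory chain. PPAR alpha and PPAR delta bind fatty acids, pair with RXR receptors on DNA, and switch on many of these genes during fasting and fat feeding. The meibomian gland of the eyelid margin makes and secretes lipid, and its secretory cells are called meibocytes.

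The labels call the tissue meibomian gland, while the series text describes eyelids taken whole. All 11 meibocyte markers of a list drawn up for this tissue exceeded 1 FPKM in some library (reads per kilobase of exon, scaled to the depth of the library), with Scd1, a fatty acid desaturase, at 2993 to 5270 FPKM. Skeletal muscle markers were also high: 16 of 17 exceeded 1 FPKM in some library, and Acta1, the actin of muscle fibres, stood at 721 to 2083 FPKM. The library depth recovered from the steps between FPKM values was 14096362 to 17889158 reads. Of the 34 genes, 33 exceeded 1 FPKM in at least 2 libraries and were tested together with 13228 genes in all.

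**Figure D1:**
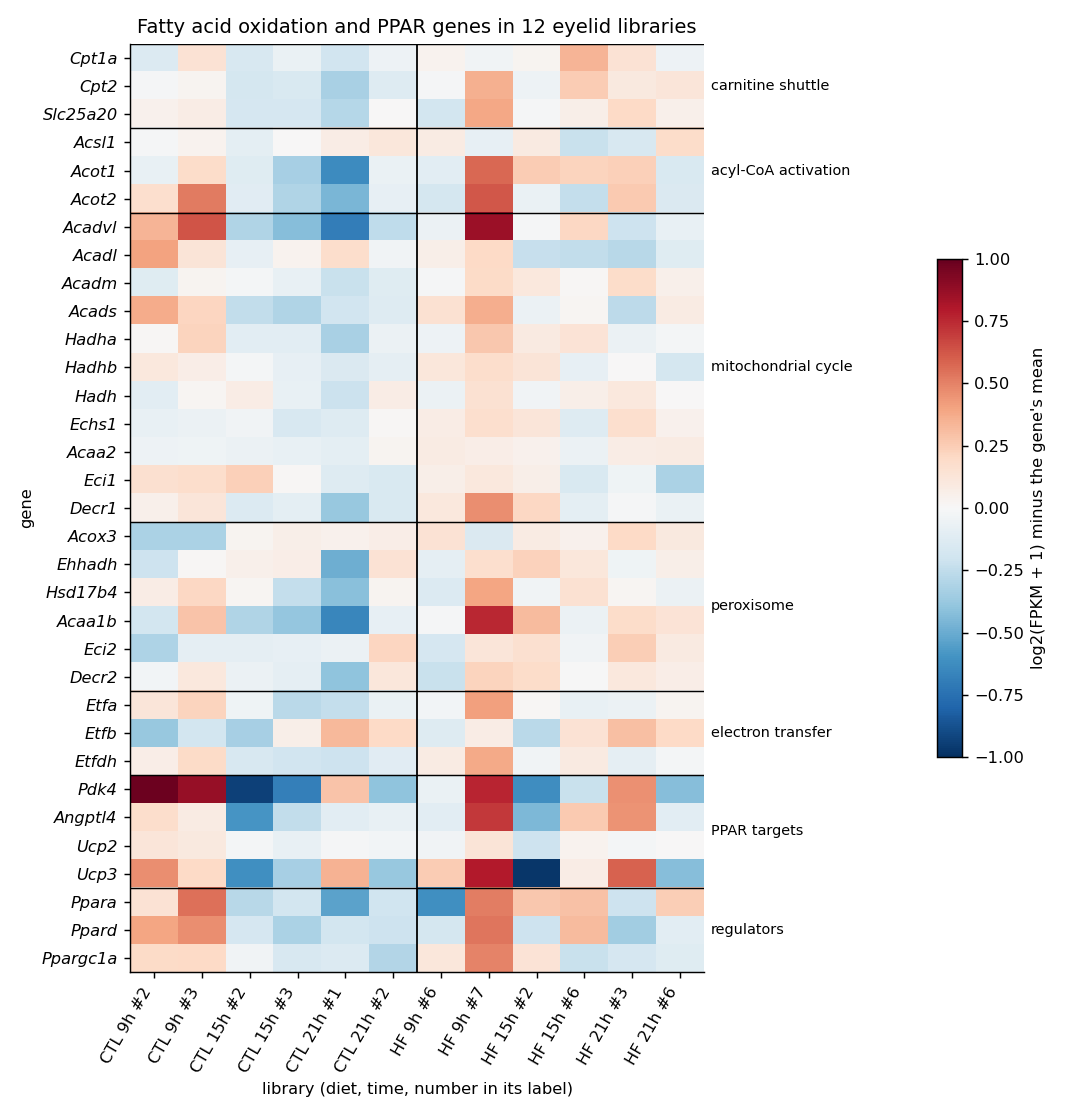
Each gene's log2(FPKM + 1) minus its own mean over the 12 libraries, for the 33 genes tested, with libraries in columns (6 controls on the left, 6 high-fat on the right) and genes grouped by role. The colour scale ends at -1 and 1, and values beyond it take the end colour. The library HF 9h number 7 is red and CTL 21h number 1 blue for most genes.

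Many of these genes shared their highest and lowest libraries, and their start sites were searched for the DNA element that PPAR and RXR bind, 2 copies of AGGTCA with 1 base between them. The search covered both strands of windows from 250 bases before to 50 after the RefSeq start sites (GRCm38.p6), and 29 of the 34 genes had such a window. The exact element stood in none of the windows of these genes and in 13 of all 32851 windows (0.0396%). With up to 2 letters different it stood in 4 of the 29 genes, beside 3.86% of all windows. These 4 windows are shown because they hold the nearest matches, 5′ to 3′ on the strand of the gene, with the match in capitals. Ucp3 lies at chr7:100472741-100473040 (plus strand), Echs1 at chr7:140116372-140116671 (minus strand), Etfa at chr9:55512194-55512493 (minus strand, match on the opposite strand) and Slc25a20 at chr9:108661886-108662185 (plus strand).
Slc25a20: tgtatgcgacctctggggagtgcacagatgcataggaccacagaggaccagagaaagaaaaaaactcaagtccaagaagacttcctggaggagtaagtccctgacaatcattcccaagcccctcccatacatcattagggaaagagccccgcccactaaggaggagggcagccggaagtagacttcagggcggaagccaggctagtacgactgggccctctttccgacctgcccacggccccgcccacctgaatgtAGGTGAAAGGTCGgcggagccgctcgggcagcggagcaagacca
Echs1: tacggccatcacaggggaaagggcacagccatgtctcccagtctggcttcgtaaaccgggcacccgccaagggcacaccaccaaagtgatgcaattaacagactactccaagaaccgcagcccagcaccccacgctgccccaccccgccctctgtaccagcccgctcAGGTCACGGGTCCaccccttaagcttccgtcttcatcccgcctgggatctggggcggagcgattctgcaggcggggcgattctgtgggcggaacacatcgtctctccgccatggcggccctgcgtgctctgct
Etfa: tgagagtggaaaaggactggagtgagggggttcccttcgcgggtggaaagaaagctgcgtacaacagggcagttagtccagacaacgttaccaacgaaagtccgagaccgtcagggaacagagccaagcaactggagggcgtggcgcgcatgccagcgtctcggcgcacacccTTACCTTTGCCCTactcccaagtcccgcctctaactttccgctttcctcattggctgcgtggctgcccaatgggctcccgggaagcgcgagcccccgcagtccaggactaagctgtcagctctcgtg
Ucp3: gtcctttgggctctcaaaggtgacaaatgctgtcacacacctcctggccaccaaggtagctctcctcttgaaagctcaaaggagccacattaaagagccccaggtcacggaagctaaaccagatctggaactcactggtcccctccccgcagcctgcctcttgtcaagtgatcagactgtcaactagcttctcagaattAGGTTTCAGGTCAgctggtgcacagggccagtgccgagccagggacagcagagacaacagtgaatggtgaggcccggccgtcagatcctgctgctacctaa
The matches start at position 6 from the start site in Slc25a20, at -83 in Echs1, at -77 in Etfa and at -51 in Ucp3. The other 2 motifs searched were TCAAGGTCA, the element of the ERR receptors, and CACGTG, the E-box bound by the clock activators. Neither was found in the windows of these genes, beside 0.423% and 7.15% of all windows. A match in letters is a description of the window and was not tied to binding.

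Acaa2, the mitochondrial thiolase, was the most abundant by its mean (85.4 to 97.0 FPKM over the 12 libraries), and Acadm, the medium-chain dehydrogenase, followed at 76.9 to 103 FPKM. Ucp2, an inner-membrane carrier, lay at 76.6 to 96.9 FPKM, Etfa at 71.9 to 115 FPKM and Hsd17b4, the peroxisomal bifunctional enzyme, at 59.9 to 106 FPKM. The ranges of these 5 genes overlapped, so their order is not resolved by the spread of the libraries. Acaa2 varied least, 1.14-fold from its lowest to its highest library, and among the genes tested Pdk4 and Ucp3 varied most, 3.86-fold and 3.83-fold. Pdk4 encodes a kinase that shuts off pyruvate entry into the citrate cycle, and Ucp3 a mitochondrial carrier abundant in muscle.

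The regulators were less abundant than most of the enzymes. Ppara averaged 5.12 FPKM, Ppard 8.33 FPKM and Ppargc1a, a coactivator that drives mitochondrial genes, 1.38 FPKM. In the carnitine shuttle, Cpt1a, the isoform of the rate-limiting outer-membrane step found in liver and most other tissues, lay at 11.7 to 17.4 FPKM. Slc25a20, the carrier that exchanges acylcarnitine for carnitine, lay at 24.6 to 39.8 FPKM. Among the activating and thioester-cleaving enzymes, Acsl1, an acyl-CoA synthetase, lay at 14.2 to 19.1 FPKM and Acot2, a mitochondrial thioesterase, at 5.54 to 12.8 FPKM. Of the shared mitochondrial cycle, the trifunctional protein genes Hadha and Hadhb lay at 25.6 to 39.1 FPKM and 18.6 to 24.0 FPKM, and Hadh, the short-chain hydroxyacyl dehydrogenase, at 47.6 to 61.7 FPKM. In the peroxisomal set Ehhadh, another bifunctional enzyme, lay at 9.19 to 15.8 FPKM, the isomerase Eci2 at 10.3 to 15.6 FPKM and the reductase Decr2 at 27.0 to 42.2 FPKM. Angptl4, a secreted lipase inhibitor and PPAR target, lay at 9.23 to 24.0 FPKM.

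Cpt1b and Etfb were listed at far lower levels than their partners. Cpt1b, the muscle isoform of the outer-membrane step (ENSMUSG00000078937, chr15:89416405-89425863, minus strand, GRCm38), stood at 0.0374 to 0.232 FPKM, that is 2 to 14 reads, and was not tested. Of its merged exon bases, 81.4% are also annotated to Gm44502, a protein-coding gene on the same strand, which was listed at 0 in all 12 libraries. Etfb, the second subunit of the electron transfer flavoprotein (ENSMUSG00000004610, chr7:43444083-43457800, plus strand), stood at 0.506 to 1.44 FPKM although its partner Etfa averaged 87.5 FPKM. Here 53.0% of the exon bases are shared with a gene on the same strand that the table calls Etfbl, also listed at 0 throughout. How reads in shared exons were counted is not given in the sources used here, so the levels of Cpt1b and Etfb are uncertain. Smaller uncertainties of this kind touch Acaa1b, whose sequence shares 30.5% of its 50-base words with Acaa1a, and the pair Acot1 and Acot2 (13.6% of the words of Acot1 and 24.5% of those of Acot2). They also touch Acadvl (26.9% of its words shared with Dvl2), Hadhb (19.7% shared with other genes, 18.1% with Gm13910) and Eci2 (11.1% shared with other genes).

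Diet was compared first, averaged over the 3 times. In the high-fat libraries 28 of the 33 genes had a higher mean than in controls, but each difference was small and none passed the test: limma called 0 of 33 at an adjusted p under 0.05, beside 1.98% of all genes tested. Without adjustment 7 of the 33 had a p under 0.05, beside 14.1% of all genes. Counting reads instead of FPKM (limma-voom on the recovered reads) also called 0 of 33, beside 1.79% of all genes. The median difference of the 33 genes was 0.12 on the log2(FPKM + 1) scale, against -0.01 over all genes, and the values ran from -0.21 for Acadl to 0.44 for Acaa1b. Of all genes tested 48% had a value above 0. No gene of the set had all 6 high-fat libraries above all 6 controls, which 0.393% of all genes had, and none had all 6 below, which 1.86% had. Nor did any gene stand apart in the same direction at each of the 3 times (1.6% of all genes above, 3.54% below).

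Many of the highest values lay in 1 library and many of the lowest in another. The high-fat library number 7 of 9h held the highest value of the 12 for 21 of the 33 genes, beside 8.51% of all genes. The control library number 1 of 21h held the lowest value for 16 of 33, beside 9.24% of all genes. The summed FPKM of the 11 meibocyte markers was also highest in the first (12132) and lowest in the second (7286). The first was not set apart by meibocyte markers alone. It also held the highest sums of muscle (9331), adipocyte (75.7), brown adipocyte (902) and respiratory chain and citrate cycle genes (1470). Its keratinocyte sum (3170) was not the highest, and its T cell sum (9.63) was the lowest. In the second the muscle (5807) and adipocyte (59.7) sums were not the lowest. With both libraries left out, 20 of the 33 genes had a value above 0, the median was 0.04, and 54.2% of all genes had a value above 0. Keratinocyte markers summed to 3246 to 3980 FPKM in controls and to 2794 to 3683 FPKM under high fat, and T cell markers to 18.3 to 33.7 and 9.63 to 14.8 FPKM. The part of these cell types in the diet values was not tested.

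**Figure D2:**
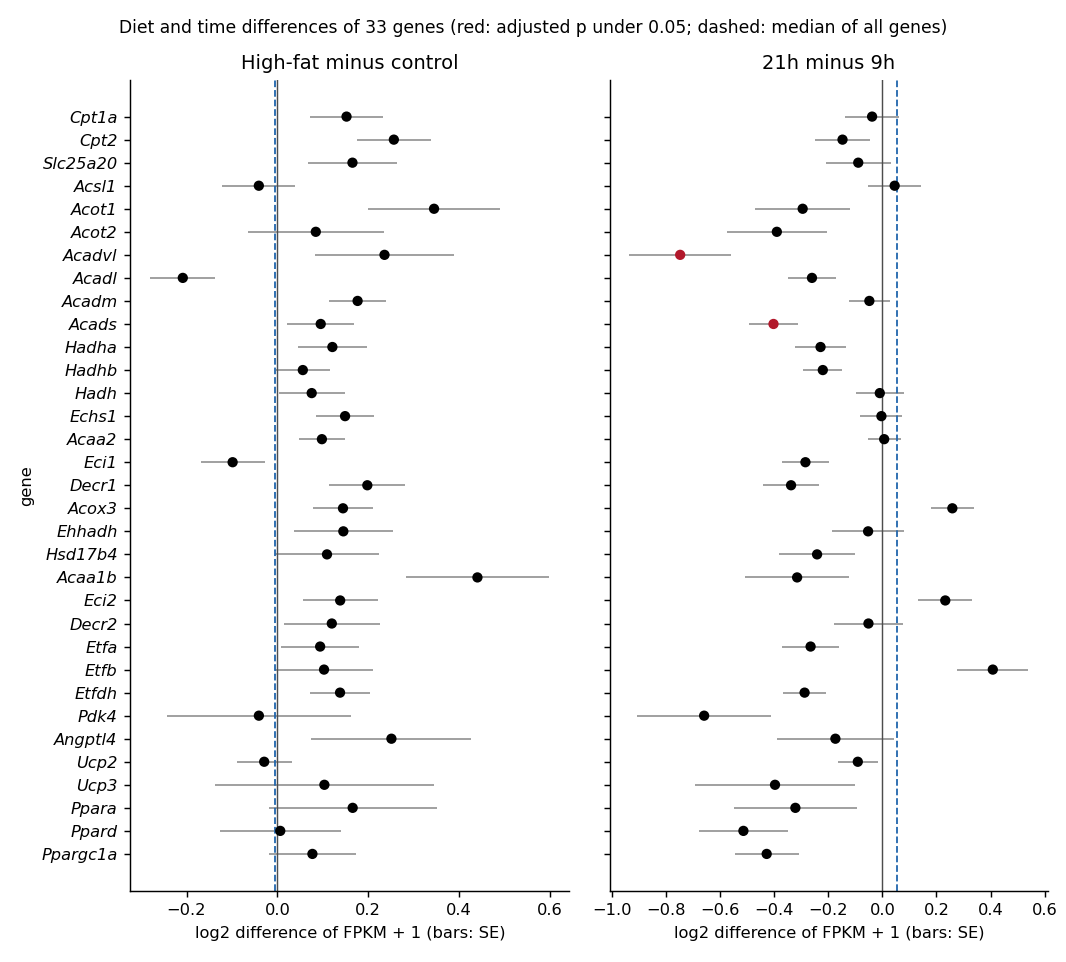
Differences in log2(FPKM + 1) with standard errors for each of the 33 genes, high-fat minus control averaged over times (left) and 21h minus 9h averaged over diets (right). The dashed line is the median of all 13228 genes, and red marks an adjusted p under 0.05 (limma): no gene on the left, Acads and Acadvl on the right.

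Among the 8 genes with the smallest p for diet, 7 had higher means under high fat. Cpt2, the inner-membrane carnitine acyltransferase (ENSMUSG00000028607, chr4:107903981-107923610, minus strand), had control values of 19.5 (lowest), 22.2 (median) and 25.2 FPKM (highest) and high-fat values of 23.8, 26.7 and 31.9 FPKM. The 2 diets overlapped only between 23.8 and 25.2 FPKM. The difference was 0.26 ± 0.08 (SE) with an adjusted p of 0.197 (limma), the smallest of the set. Acadm had 76.9, 84.1 and 91.8 FPKM in controls and 89.1, 95.1 and 103 FPKM under high fat, a difference of 0.18 ± 0.06 (limma adjusted p = 0.248). At 15h and at 21h the diets did not overlap for either gene, and at 9h they did.

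Acaa1b, a peroxisomal thiolase, showed the widest difference of the set. Its control values were 36.5, 48.8 and 70.7 FPKM and its high-fat values 55.6, 64.6 and 98.3 FPKM (lowest, median, highest). The difference was 0.44 ± 0.16 (limma adjusted p = 0.253), and it was 0.31 without the high-fat library number 7 of 9h. Acot1, a cytosolic thioesterase that frees fatty acids from acyl-CoA, had 46.5, 67.7 and 82.3 FPKM in controls and 65.2, 85.1 and 108 FPKM under high fat. That difference was 0.34 ± 0.14 (limma adjusted p = 0.327). The high-fat ranges of both genes reached above the highest control but overlapped the control range.

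Decr1 and Echs1 serve the mitochondrial cycle, the first for unsaturated chains and the second as the short-chain hydratase. Decr1 had 13.6, 16.6 and 19.7 FPKM in controls and 16.8, 18.6 and 25.2 FPKM under high fat (0.20 ± 0.08, limma adjusted p = 0.330). Echs1 had 18.6, 19.8 and 21.0 FPKM and 19.0, 22.4 and 23.6 FPKM (0.15 ± 0.06, limma adjusted p = 0.336). Acox3, a peroxisomal oxidase of branched chains, had 3.06, 4.17 and 4.27 FPKM and 3.58, 4.38 and 4.80 FPKM (0.14 ± 0.07, limma adjusted p = 0.368). In each of these 3 genes the 2 ranges overlapped, and the middle of the high-fat libraries lay above that of the controls.

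Acadl, the long-chain dehydrogenase, went the other way. Its control values were 57.1, 64.0 and 80.1 FPKM and its high-fat values 49.6, 53.4 and 69.7 FPKM. The difference was -0.21 ± 0.07 with a limma adjusted p of 0.231. Both high-fat libraries lay below both controls at 15h and at 21h. Acadvl, the very-long-chain dehydrogenase of the same family, had a value of 0.24 ± 0.15 (limma adjusted p = 0.541). Of the 3 regulators, none had a p under 0.05 before adjustment: Ppara had 0.17 ± 0.19, Ppard 0.01 ± 0.13 and Ppargc1a 0.08 ± 0.10. Cpt1a had 11.7, 12.6 and 15.1 FPKM in controls and 13.1, 13.9 and 17.4 FPKM under high fat (0.15 ± 0.08, limma adjusted p = 0.441). The 16 genes not described singly had diet values of -0.04 to 0.25, 14 of them above 0.

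**Figure D3:**
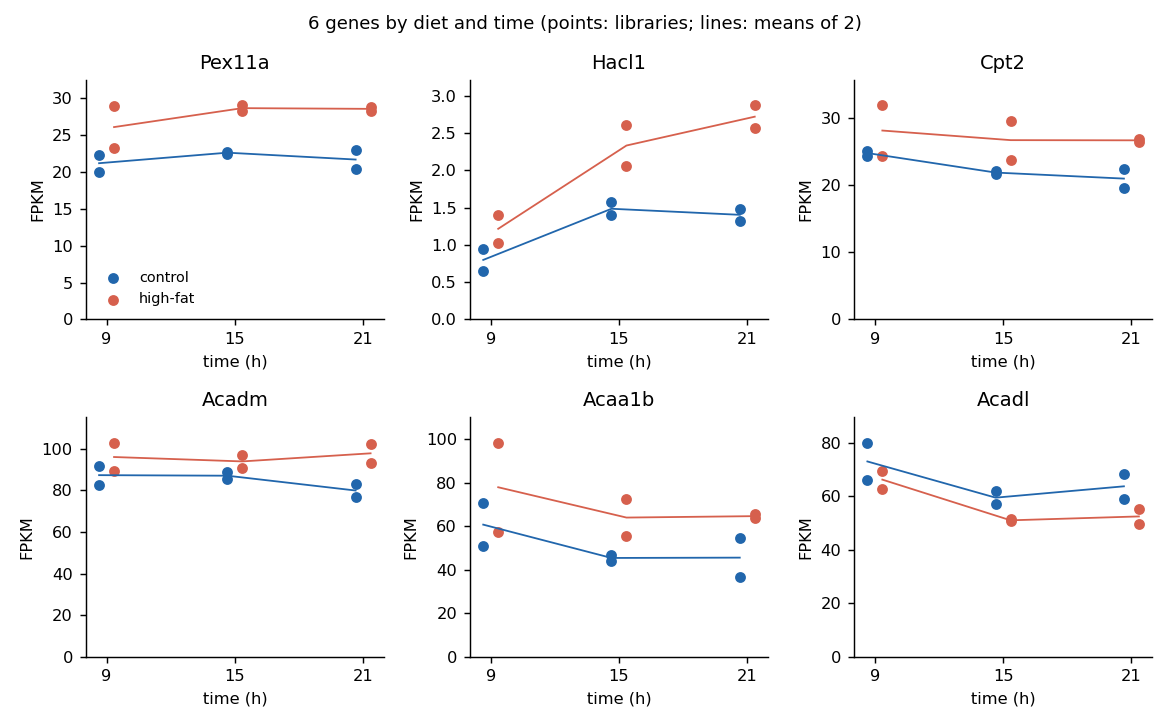
FPKM by time for 6 genes, blue for controls and red for high-fat, with a point for each library and lines through the means of 2. Pex11a and Hacl1 passed the test for diet, and Cpt2, Acadm, Acaa1b and Acadl did not. The Pex11a points of the 6 high-fat libraries (23.3 FPKM or more) all lie above those of the 6 controls (23.0 FPKM or less).

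The diets were then compared at each time. At 9h 19 of the 33 genes had a value above 0, at 15h 29 and at 21h 28, beside 55.5%, 43.3% and 45.9% of all genes. The count at 9h turned on single libraries. It was 11 of 33 without the high-fat number 7 (61.8% of all genes) and 28 without the high-fat number 6 (40.3%). Without the control number 3 it was 26 (54.9% of all genes). With a library left out the count ran from 26 to 29 at 15h and from 24 to 28 at 21h. Both high-fat libraries were above both controls for 5 genes at 9h (15% of all genes), for 15 at 15h (19% of all genes) and for 11 at 21h (15.6% of all genes). The 15 at 15h included Cpt1a, Cpt2 and Slc25a20 of the shuttle, Acadm, Acads, Acadvl and Hadha of the mitochondrial cycle, and Acaa1b, Decr2, Eci2 and Ehhadh of the peroxisome. Cpt2, Slc25a20, Acadm, Acadvl, Etfdh and Acaa1b were apart in the same direction at 21h. With both high-fat libraries below both controls stood Eci1 and Pdk4 at 9h (14.8% of all genes), Acadl at 15h (26.7%) and Acadl at 21h (22.2%).

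The limma test called none of the 33 genes at 9h (0% of all genes called), at 15h (0.0605%) or at 21h (0.00756%). Genes of the set with an unadjusted p under 0.05 numbered 1 at 9h (7.22% of all genes), 0 at 15h (11.6%) and 2 at 21h (5.37%), and limma-voom on the recovered reads called none at any time. The difference between the times was tested as an interaction of diet and time, which called none of the 33 and 0% of all genes, and limma-voom called none either. Before adjustment 0 of 33 had a p under 0.05, beside 3.06% of all genes. The higher count at 15h and 21h than at 9h is therefore not shown to be a difference between the times.

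Time of day was compared next, over both diets. The genes that passed were lower late in the day. For 21h minus 9h 28 of the 33 genes had a value below 0, with a median of -0.23, against 0.05 over all genes, of which 59.9% had a value above 0. Acads and Acadvl passed the test and were lower at 21h, 2 of 33 beside 3.43% of all genes called lower, 2.59% called higher and 6.02% in either direction. Without adjustment 15 of the 33 had a p under 0.05, beside 28.3% of all genes. For 15h minus 9h limma called none of the set (0.0227% of all genes, 0.0151% lower), 6 of 33 had a value above 0 (60.7% of all genes) and 11 had an unadjusted p under 0.05 (23.2% of all genes), and for 21h minus 15h it called none (0% of all genes) with 3 under 0.05 (4.45% of all genes). Limma-voom called none for these 2 differences (0.0151% and 0% of all genes) and Acads and Acadvl for 21h minus 9h (7.15% of all genes).

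Acads, the short-chain acyl-CoA dehydrogenase (ENSMUSG00000029545, chr5:115110299-115119346, minus strand), was at 20.6 and 18.4 FPKM in controls and 17.5 and 20.4 FPKM under high fat at 9h. At 15h the values were 13.0 and 12.5 FPKM in controls and 15.0 and 15.9 FPKM under high fat, and at 21h 13.6, 14.2, 12.9 and 16.6 FPKM in the same order. All 4 libraries of 9h were above the 8 others, which held for 1 of the 33 genes and 3.46% of all genes. The 21h minus 9h difference was -0.40 ± 0.09 (limma adjusted p = 0.0382). It passed the test in 4 of 12 fits that each left out a library (without the high-fat libraries 6 of 9h, 2 of 15h, 6 of 15h and 6 of 21h), with limma adjusted p from 0.0130 to 0.127 over the 12. With no filter on low genes the limma adjusted p was 0.0544.

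Acadvl (ENSMUSG00000018574, chr11:70010183-70015411, minus strand) opens the cycle for the longest chains. At 9h it was at 39.7 and 48.8 FPKM in controls and 29.9 and 57.3 FPKM under high fat. At 21h it was at 18.9 and 26.0 FPKM in controls and 26.9 and 29.6 FPKM under high fat, so the lowest library of 9h and the highest of 21h nearly met. At 15h the values were 25.2, 22.9, 30.9 and 36.2 FPKM in the same order. The 21h minus 9h difference was -0.75 ± 0.19 with a limma adjusted p of 0.0498. It passed in 1 of the 12 fits that left out a library, the one without high-fat number 6 of 9h (-0.98), and was -0.52 without high-fat number 7 of 9h (limma adjusted p from 0.00310 to 0.154). With a pseudocount of 0.1, with no filter and with median-of-ratios scaling the limma adjusted p was 0.0508, 0.0792 and 0.0547. Exons of Dvl2 on the opposite strand cover 42.9% of the exon bases of Acadvl, and the strand setting of the counting is not given in the sources used here. Dvl2 stood at 3.02 to 3.85 FPKM and had a 21h minus 9h value of -0.05 ± 0.07 (limma adjusted p = 0.659).

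**Figure D4:**
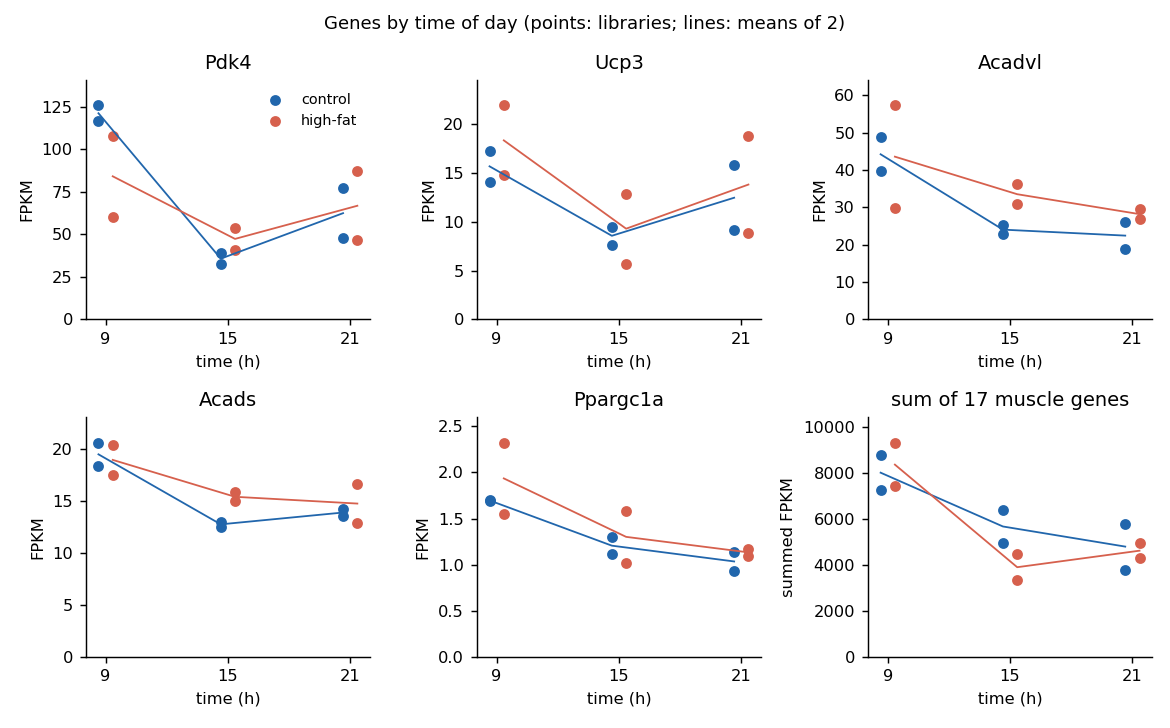
FPKM by time for 5 genes and the summed FPKM of 17 muscle markers, blue for controls and red for high-fat, with a point for each library and lines through the means of 2. Pdk4 and Ucp3 are lowest at 15h, while Acadvl, Acads, Ppargc1a and the muscle sum are highest at 9h.

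Pdk4 and Ucp3 had their lowest means at 15h. Pdk4 was at 126 and 117 FPKM in controls and 60.3 and 108 FPKM under high fat at 9h. It was at 32.6 and 38.9 FPKM in controls and 40.8 and 53.9 FPKM under high fat at 15h, all below the 4 libraries of 9h. At 21h the values were 77.3, 47.7, 87.0 and 46.7 FPKM in the same order and overlapped both other times. The 15h minus 9h difference was -1.25 ± 0.25 (limma adjusted p = 0.0752), past the threshold without high-fat number 6 of 9h (0.00784). Ucp3 was at 17.2, 14.1, 14.7 and 21.9 FPKM at 9h and at 7.61, 9.49, 5.70 and 12.8 FPKM at 15h, with 15.8, 9.11, 18.8 and 8.79 FPKM at 21h (controls first). Its 15h minus 9h difference was -0.89 ± 0.29 (limma adjusted p = 0.130). Pdk4, Ucp3, Acadl and Acads were the 4 of 33 genes with every 9h library above every 15h library, beside 4.69% of all genes.

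All 4 libraries of 9h were above all 4 of 21h for 7 genes, beside 7.87% of all genes: Acads, Acadvl, Decr1, Eci1, Etfdh, Hadhb and Ppargc1a. Ppargc1a was at 1.69 and 1.70 FPKM in controls and 1.55 and 2.32 FPKM under high fat at 9h, against 1.14, 0.927, 1.10 and 1.17 FPKM at 21h. Its 15h values were 1.30, 1.11, 1.58 and 1.02 FPKM, and its 21h minus 9h difference was -0.43 ± 0.12 (limma adjusted p = 0.0615). Etfdh, which hands electrons to ubiquinone, was at 19.9, 21.8, 20.1 and 25.0 FPKM at 9h, 16.9, 16.5, 18.5 and 20.3 FPKM at 15h and 16.3, 17.4, 17.8 and 18.6 FPKM at 21h (-0.29 ± 0.08, limma adjusted p = 0.0631). Eci1, the mitochondrial enoyl-CoA isomerase, was at 23.6, 23.9, 21.9 and 22.6 FPKM at 9h, 24.9, 21.1, 21.9 and 18.8 FPKM at 15h and 19.1, 18.8, 20.3 and 16.7 FPKM at 21h (-0.28 ± 0.09, limma adjusted p = 0.0762). Etfb alone had every 9h library below every 21h library, which 6.24% of all genes had, at the uncertain level described above.

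Acadl and Acox3 completed the 8 genes with the smallest p for time. Acadl was at 80.1, 66.1, 62.9 and 69.7 FPKM at 9h, 57.1, 61.9, 51.4 and 50.7 FPKM at 15h and 68.5, 59.1, 49.6 and 55.4 FPKM at 21h, controls first. Its 21h minus 9h difference was -0.26 ± 0.09 (limma adjusted p = 0.0961), and the libraries of 9h and 21h overlapped, while those of 9h and 15h did not. Acox3 had a value above 0, with 3.06, 3.06, 4.57 and 3.58 FPKM at 9h, 4.13, 4.27, 4.36 and 4.21 FPKM at 15h and 4.21, 4.27, 4.80 and 4.41 FPKM at 21h (0.26 ± 0.08, limma adjusted p = 0.0808). Its high-fat library number 6 of 9h stood with the later times. Ppara was at 5.54, 7.68, 2.87 and 7.45 FPKM at 9h, 3.89, 4.22, 6.14 and 6.26 FPKM at 15h and 3.10, 4.16, 4.12 and 6.02 FPKM at 21h, and the high-fat library number 6 of 9h was its lowest. Ppard was at 10.9, 11.6, 7.08 and 12.2 FPKM at 9h, 7.11, 6.30, 6.87 and 10.3 FPKM at 15h and 7.03, 6.89, 6.17 and 7.48 FPKM at 21h.

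The F test over the 3 times, averaged over diets, called none of the 33 genes (1.46% of all genes). Without adjustment 14 had a p under 0.05, beside 23.6% of all genes, and limma-voom called none (1.9% of all genes). Within controls limma called none (0.0227% of all genes, 7 genes at an unadjusted p under 0.05 beside 18.3% of all genes) and within high-fat libraries none (0% of all genes, 1 gene at an unadjusted p under 0.05 beside 8.73% of all genes), while limma-voom made no call in either. Leaving out the high-fat library number 6 of 9h changed these counts most. Without it limma called 10 of the 33 genes in the F test (19% of all genes), 12 for 15h minus 9h (20.6% of all genes) and 12 for 21h minus 9h (25.6% of all genes), so calls over all genes became more frequent as well. Without high-fat number 7 of 9h, 12 of the 33 genes had a 21h minus 9h value above 0, beside 54.2% of all genes. With the high-fat library number 7 of 9h and the control number 1 of 21h both left out, 16 of 33 had a value above 0, beside 53.9% of all genes. The median of the 33 was then -0.01.

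Muscle markers were, as a sum, highest at 9h. Their summed FPKM was 7272 to 9331 at 9h, 3345 to 6400 at 15h and 3801 to 5807 at 21h, so the 9h libraries stood apart. Of the 16 tested, 8 were lower at 21h than at 9h (limma adjusted p under 0.05) and none higher, with a median of -0.80. Of all genes 3.43% were called lower. Of 15 genes of the respiratory chain and citrate cycle 5 were lower at 21h and none higher, with a median of -0.31. Over all genes, most calls for this difference were lost in some fits that left out a library. How many of the muscle and respiratory chain calls were kept in such fits is not reported here. In a whole-tissue library fewer cells of a type and less RNA per cell cannot be told apart. The part of the muscle content in the time differences of the oxidation genes was not tested.

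Further genes of the same pathways were then compared between the diets. Of 37 further fatty acid oxidation genes 34 were tested: 2 were higher in high-fat tissue, none lower, and 29 had a value above 0, with a median of 0.10. Of 37 further PPAR targets and partners 32 were tested: none was lower, and 24 had a value above 0, with a median of 0.09. Of all genes 0.204% were called higher for diet and 1.78% lower, and 48% had a value above 0. The textbook PPAR alpha targets of liver Cyp4a10, Cyp4a14, Fabp1 and Fgf21 stayed under 1 FPKM in every library, as did the brown fat gene Ucp1.

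Pex11a, which drives peroxisome division, had control values of 20.0, 22.4 and 23.0 FPKM and high-fat values of 23.3, 28.6 and 29.0 FPKM (lowest, median, highest), with no overlap. The difference between the diets was 0.33 ± 0.07 (limma adjusted p = 0.0409), and it passed in 1 of 12 fits that left out a library (limma adjusted p from 0.0177 to 0.145) and neither with no filter (0.0538) nor with median-of-ratios scaling (0.0918, both limma adjusted p). Hacl1, a peroxisomal lyase for branched and hydroxylated chains, had 0.656, 1.36 and 1.57 FPKM in controls and 1.03, 2.31 and 2.87 FPKM under high fat. Its difference was 0.45 ± 0.08 (limma adjusted p = 0.0307), passing in 2 of 12 such fits (limma adjusted p from 0.0323 to 0.121). Neither passed without both libraries that held most of the extremes (limma adjusted p = 0.128 and 0.0750). The meibocyte marker sum averaged 8779 FPKM in controls and 10437 FPKM under high fat, and its part in the Pex11a and Hacl1 differences was not tested. With a pseudocount of 0.1 the Hacl1 difference was 0.69. Hacl1 was also higher at 21h than at 9h (0.59 ± 0.10, limma adjusted p = 0.0226, kept in 5 of 12 fits that left out a library, and 0.94 with a pseudocount of 0.1).

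For 21h minus 9h the further PPAR list held 3 genes lower and none higher, with 12 of 32 values above 0. Of all genes 3.43% were called lower and 2.59% higher for this difference, and 59.9% had a value above 0. Fabp3, a fatty acid binding protein abundant in muscle, averaged 63.7 ± 12.2 FPKM at 9h and 33.2 ± 9.51 FPKM at 21h (SD, n = 4 each; -0.95 ± 0.20, limma adjusted p = 0.0316). Rxra, the common partner of the PPARs, averaged 39.5 ± 6.88 and 26.8 ± 1.95 FPKM (-0.53 ± 0.12, limma adjusted p = 0.0362). Prkaa2, a catalytic subunit of the energy sensor AMPK, averaged 9.13 ± 1.05 and 6.54 ± 0.81 FPKM (-0.43 ± 0.10, limma adjusted p = 0.0461). These calls were kept in 4, 3 and 3 of 12 fits that left out a library, and with no filter on low genes the limma adjusted p was 0.0525, 0.0552 and 0.0683. The further oxidation genes held 1 gene higher, Hacl1, and none lower.

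The levels were then set against the summed FPKM of the meibocyte, muscle and adipocyte markers over the 12 libraries. Correlations were taken between log2(FPKM + 1) and log2 of the sum, with permutation p-values (100000 permutations, 2-sided) adjusted over all genes tested and the 3 sums, a range of adjustment set after the values were seen. Of the 33 genes 6 correlated with the meibocyte sum, all positively, beside 1.03% of all genes with a positive and 0.59% with a negative correlation. Before adjustment 16 of the 33 had a positive r with a permutation p under 0.05 (5.89% of all genes) and none a negative one (13.4% of all genes). Acot1 had r = 0.91 (permutation p = 4e-05, adjusted 0.00831) and rho = 0.88 (permutation p = 0.00028). Slc25a20 had r = 0.91 (permutation p = 2e-05, adjusted 0.00526) and rho = 0.85 (permutation p = 0.00088). Decr2 had r = 0.89 (permutation p = 1e-05, the smallest these permutations can give, adjusted 0.00382) and rho = 0.85 (permutation p = 0.00103). The others were Acaa1b (r = 0.86), Cpt2 (0.84) and Hsd17b4 (0.83), with adjusted permutation p of 0.0262, 0.0437 and 0.0385. Next in order came Ppara (0.83), Hadha (0.83), Acadm (0.82) and Hadh (0.75), which did not pass. The meibocyte sum was 7286 to 10306 in controls and 7840 to 12132 in high-fat libraries, and all 11 markers had a diet value above 0 with a median of 0.24, of which Soat1, a cholesterol acyltransferase, passed the test (0.42 ± 0.08, limma adjusted p = 0.0408). Among all genes 48% had a diet value above 0 and 0.204% were called higher.

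**Figure D5:**
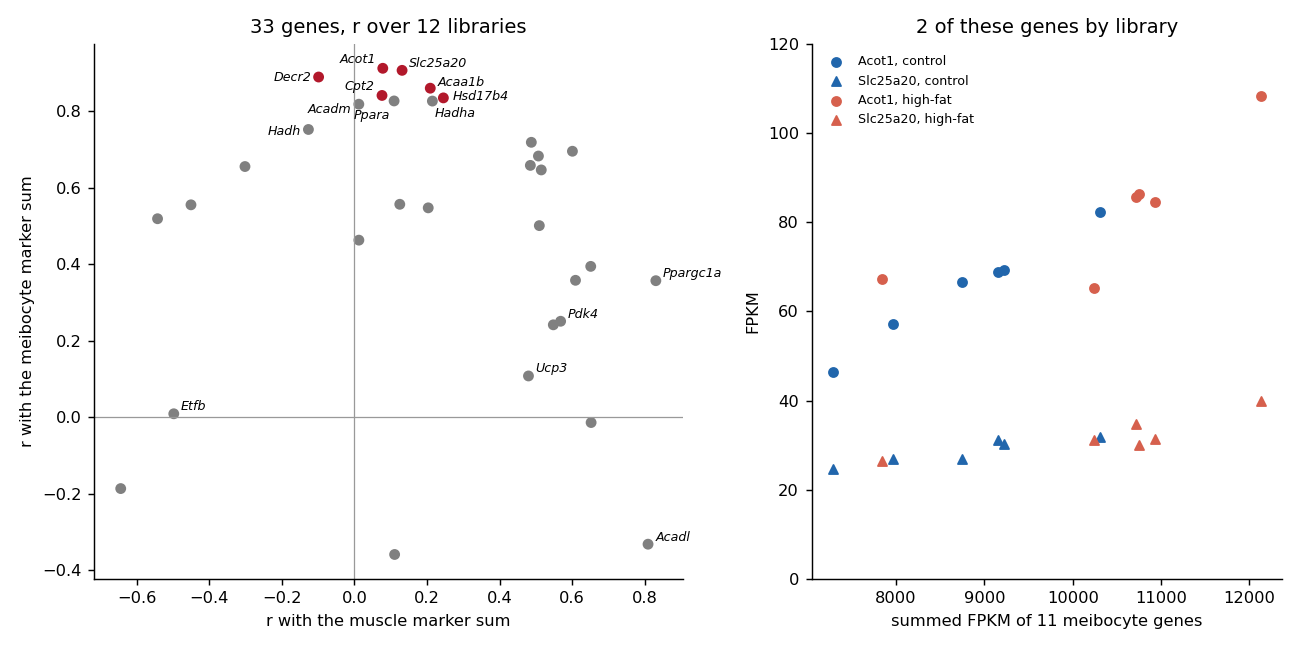
Left: Pearson r of each of the 33 genes with the muscle marker sum (x axis) and the meibocyte marker sum (y axis) over 12 libraries, taken on log2 values, red for an adjusted permutation p under 0.05 with the meibocyte sum. The 6 red points lie at r of 0.83 or more on the y axis, and none passed with the muscle sum. Right: FPKM of Acot1 (circles, r = 0.91) and Slc25a20 (triangles, r = 0.91) against the meibocyte sum, by diet.

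The groups of diet and time were then taken out. With each value centred within its own group of diet and time, r for the 6 genes was 0.79 to 0.96. In groups of 2 libraries the centred values mirror each other, so every centred r given here rests on fewer independent values than libraries. The 6 genes were also picked for their r in these same libraries, and no p-value is given for centred values. The centred r is therefore a description and not a separate test of the correlation. Without the 2 libraries farthest from the median sum (control number 1 of 21h and high-fat number 7 of 9h) all 6 had a positive r, 0.83 for Acot1, 0.84 for Slc25a20, 0.81 for Decr2 and the smallest 0.64 for Hsd17b4. Over the 33 genes the median r was 0.56, against -0.21 over all genes, and 29 had an r above 0, beside 33.5% of all genes. When centred, 30 of the 33 were positive, but the share of all genes is not given here for centred values. The gene values and the sums share each library's scaling, and the 2 farthest libraries are those that held most of the extremes. With the muscle sum none of the 33 genes passed (2.29% of all genes positive, 0.666% negative). The highest values were those of Ppargc1a (r = 0.83, permutation p = 0.00083, adjusted 0.0509; rho = 0.85, permutation p = 0.00084) and Acadl (r = 0.81, permutation p = 0.00155, adjusted 0.0690; rho = 0.81, permutation p = 0.00196). Without the 2 libraries farthest from the median muscle sum (high-fat number 7 and control number 2, both of 9h) r was 0.72 and 0.69, and centred within groups it was 0.79 and 0.62. The muscle and meibocyte sums had an r of -0.10 with each other.

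No gene of the set passed with the adipocyte sum (0.00756% of all genes positive, 0.0756% negative), which was 44.9 to 72.2 FPKM in controls and 53.8 to 75.7 FPKM in high-fat libraries, with Lep and Adrb3 under 1 FPKM in every library. Pdk4 had r = 0.57 with muscle, 0.49 with adipocyte and 0.25 with meibocyte markers (adjusted permutation p = 0.311, 0.395 and 0.704). Ucp3 had its highest r with the adipocyte sum, 0.62 (permutation p = 0.0338, adjusted 0.253), then 0.48 with muscle and 0.11 with meibocyte markers (adjusted permutation p = 0.416 and 0.891). Of the other lists, keratinocyte markers had 0 of 8 diet values above 0 and none called, T cell markers 0 of 7 above 0 with 4 called lower, clock genes 11 of 15 above 0 with none called, and glucocorticoid-induced genes 8 of 8 above 0 with 1 called higher. Brown adipocyte markers had 1 of 4 tested above 0 and none called, and the respiratory chain list 7 of 15 above 0 and none called. Beside these counts, 48% of all genes had a diet value above 0, 1.78% were called lower and 0.204% higher.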

How the data were processed

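RNA of 12 eyelid libraries was sequenced, and the authors deposited 1 table of FPKM values for 21936 genes. Per the labels' protocols, RNA was taken with Trizol and libraries made with the NEBNext Ultra II kit. HISAT2 2.0.5, HTSeq 0.9.1, DESeq 1.30.0 and the build mm9 are named per the submitters' processing notes. For the step from counts to FPKM and the strand setting, nothing was found in the sources used here. The deposited FPKM values were whole numbers of reads within 0.02 for 98.1% of nonzero values with the exon lengths of GENCODE M21 (GRCm38), whose coordinates are given. Depth was 14096362 to 17889158 reads.

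Differences in log2(FPKM + 1) were fitted with limma 3.58.1 (trended prior variance, R 4.3.3). The fit took in 13228 genes that exceeded 1 FPKM in 2 or more libraries, with a mean for each of 6 groups and 6 residual degrees of freedom. P-values were adjusted by Benjamini-Hochberg over all these genes, with calls made below 0.05. The log2(FPKM + 1) scale understates changes of low genes. The test was tried on simulated data first. Correlations used permutation with scipy 1.17.1.

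Library values are given for genes called, for the 8 with the smallest p for diet and for time, and for the regulators and Cpt1 and Cpt2 genes, and at most 4 genes of each other list (smallest p, mean above 1 FPKM) are named. The markers Lep, Adrb3, Acta1 and Scd1, the genes under 1 FPKM and Dvl2, Gm44502 and Etfbl were named outside that rule, after their values were seen, as were the counts of groups that do not overlap, the counts above 0, the extreme libraries and the motifs. The gene set and all lists were chosen with earlier results of these data known. The alternatives tried were a pseudocount of 0.1, no filter, median-of-ratios scaling, limma-voom on recovered reads, each library left out, fits within a time or diet, and the label number as a block. Some results of the named lists are not reported here.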

Additional observations from a re-analysis of the deposited data

Results flagged for a closer look

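The 33 genes were screened within each diet for a library standing far from the 5 others (Dixon's criterion at 95%). In 4 of 66 tests one was found, and chance flags about 1 in 20. In 3 of these the library was high-fat number 7 of 9h, at 57.3 FPKM for Acadvl (the others 26.9 to 36.2), 115 FPKM for Etfa (the others 82.5 to 88.5) and 25.0 FPKM for Etfdh (the others 17.8 to 20.3). The last was Acaa2, the mitochondrial thiolase, at 87.8 FPKM in high-fat number 6 of 15h, with the others at 94.5 to 97.0 FPKM. The same library of 9h held the highest meibocyte and muscle marker sums, 12132 and 9331 FPKM, and the part of these in the flagged values was not tested.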

How the results depend on the processing

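Counts of called genes among the 33 did not change for diet (averaged or at each time), the interaction, time within high-fat libraries and 21h minus 15h, with 0 called in the main setting and in every alternative run. Time within controls gave 4 when only control libraries were fitted (6.4% of all genes, against 0 of 33 and 0.0227% in the main setting) and 0 to 3 with a library left out (3 without high-fat number 6 of 9h, beside 6.37% of all genes). The F test of time gave 0 to 10, 15h minus 9h 0 to 12 and 21h minus 9h 0 to 12 with a library left out, in each case with the highest count without high-fat number 6 of 9h. For 21h minus 9h 2 were called in the main setting (6.02% of all genes). A pseudocount of 0.1 left 1 (5.7% of all genes), median-of-ratios scaling 1 (7.07%) and no filter 0 (2.33%). Without both libraries with most extremes, an alternative chosen after seeing the data, the median value of the 33 genes was -0.01. Genes above 0 for diet (28) numbered 25 to 30 with a library left out, 28 under the other pseudocount, filter, scaling and read counts, 21 with the replicate block and 20 without both libraries.

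Diet values changed sign in some setting for 17 of 33 genes, none of them called. The replicate block turned Acads to -0.067, Pdk4 to 0.047, Acadvl to -0.12, Eci1 to 0.071, Ppara to -0.26 and Ppard to -0.37. Without both libraries Ppara was -0.077 and Ppard -0.11. With a library left out Pdk4 ran from -0.19 to 0.11, Ppara from -0.022 to 0.35 and Ppard from -0.11 to 0.12. For 21h minus 9h the sign changed in some setting for 14 of 33 genes, neither Acads nor Acadvl among them. Nothing in the sources used here says what the label number marks. Same-numbered libraries of different groups had a median r of -0.06 in their deviations (12 pairs, -0.50 to 0.29), the others 0.04 (48 pairs). In groups of 2 libraries the deviations mirror each other, so the medians are not independent. They cannot decide whether the number marks a pairing. The block fit had 2 residual degrees of freedom and called 0 of 13228 genes for diet. The cause of these changes was not tested.

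The median r of the 33 genes with the marker sums was 0.21 for muscle (0.26 with the mean of logs, -0.043 centred in groups), 0.34 for adipocytes (0.024 and -0.20) and 0.56 for meibocytes (0.55 and 0.73). Adjusted over the 99 pairs of these genes and sums alone, 10 genes passed with meibocytes and 2 with muscle. These counts have no share of all genes to stand beside. With the adjustment over all genes 6 and 0 passed. Depth limits Cpt1b (2 to 14 reads) and Etfb (10 to 25 reads).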
